A study of Saccharomyces cerevisiae with 6 samples.

Results

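Ribose methylation of 18S ribosomal RNA (rRNA) in the yeast Saccharomyces cerevisiae was examined at the sites of guide RNAs that serve 1 nucleotide each. These were SSU-Cm414 (guided by U14, gene SNR128), SSU-Am436 (snR87, gene SNR87), SSU-Cm1007 (snR79, gene SNR79) and SSU-Gm1428 (snR56, gene SNR56). SSU-Gm562, which the deposited annotation of modifications lacks and for which no guide was listed, was set beside them. They make up 5 of the 18 known ribose methylations of the small subunit (SSU) and 5 of the 1800 positions of 18S rRNA. The rule for choosing them uses position and guide, and it was set with earlier results of these data known. All 4 guide genes were found by symbol in the R64 gene table, where SNR128 lies next to SNR190.

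Box C/D small nucleolar RNAs (snoRNAs) pair with a stretch of rRNA and place the methyltransferase of their ribonucleoprotein on 1 nucleotide of that stretch, where it adds a methyl group to the 2'-oxygen of the ribose. U14 is unusual among them, since it is essential: beside the pairing that directs methylation it has a separate pairing with 18S rRNA that is needed for processing of the precursor. snR87, snR79 and snR56 are known as methylation guides. SSU-Cm414, SSU-Am436 and SSU-Gm562 lie in the 5' domain of 18S rRNA, SSU-Cm1007 in the central domain and SSU-Gm1428 in the 3' major domain, which holds part of the decoding region.

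The assay was RiboMeth-seq, in which RNA is cut by partial alkaline hydrolysis and fragment ends are counted bond by bond. A 2'-O-methyl group protects its bond, so that a methylated nucleotide shows fewer read ends than its neighbours. The groups were chromatin-associated RNA of wild-type strain BY4741, whole-cell RNA of the knock-out strain YWD486, whole-cell RNA of the knock-in strain YWD680, gel-purified LSU (25S) rRNA of YWD680, gel-purified LSU rRNA of BY4741 and gel-purified SSU rRNA of BY4741. YWD486 carries a plasmid with the snR67-snR53 region, in which 1 substitution prevents methylation of LSU-G2619, and YWD680 carries a plasmid with an artificial snoRNA aimed at LSU-U2954. Both targets are in 25S rRNA, so no strain is labelled as altered at the 18S sites or their guides. With 1 sample in each group, groups were compared without p-values. Repeat data exist for the knock-in whole-cell RNA alone, as run 1 and run 2 of that sample.

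Depth on 18S rRNA was 9790438 read ends in chromatin-associated RNA, 214756 in the knock-out, 517732 in the combined knock-in runs and 283160 in the wild-type SSU library. The targeted positions followed the labels. LSU-G2619 had a methylation score of 0 in the knock-out, against 0.978 in the wild-type LSU library, and LSU-U2954 scored 0.894 in the knock-in runs, against 0.376 in the wild-type LSU library. Read ends were more uneven along 18S rRNA outside the gel-purified wild-type SSU library. The coefficient of variation between positions was 1.00 in chromatin-associated RNA, 0.793 in the knock-out and 1.15 in the combined knock-in runs, against 0.555 in the wild-type SSU library, and its part in the differences below was not tested.

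The methylation score used here was 1 minus the read ends at a site divided by the weighted mean of the 6 neighbours on each side. It is near 1 where the bond is fully protected and near 0 where it is cleaved like its neighbours. The remainder, the read ends at the site as a percent of the neighbour mean, is called the residual signal. Intervals are 95% counting intervals from Clopper-Pearson bounds, except in the setting with the median of the neighbours. They cover counting error only, and reads that lack molecular identifiers need not come from separate molecules. The positions in parentheses below are on chromosome XII, minus strand, as numbered in the deposited files (their genome build is not named), and all fall in the mature, non-coding 18S rRNA.

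At SSU-Cm414 (position 466456), the U14 site, there were 483 read ends in chromatin-associated RNA, 5 in the knock-out, 16 in the knock-in and 4 in wild-type SSU rRNA. The weighted neighbour means were 3005 in chromatin-associated RNA, 89.8 in the knock-out, 320.1 in the knock-in and 96.6 in wild-type SSU rRNA. The residual signal was 16.1% in chromatin-associated RNA, 5.57% in the knock-out and 4.14% in wild-type SSU rRNA, with the knock-in between these last values, so that it was highest in chromatin-associated RNA. The scores were 0.839 (0.824 to 0.853) in chromatin-associated RNA, 0.944 (0.870 to 0.982) in the knock-out, 0.950 (0.919 to 0.971) in the knock-in and 0.959 (0.894 to 0.989) in wild-type SSU rRNA. The chromatin interval overlapped none of the other 3, which overlapped one another. SSU-Am420, the site of snR52, lies 6 nucleotides from SSU-Cm414 and so counts among its neighbours. The neighbours on the 3' side were sparser than those on the 5' side in each of these libraries, with means of 49.6 and 130.1 in the knock-out and 66.8 and 126.5 in wild-type SSU rRNA.

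At SSU-Am436 (position 466434), the snR87 site, there were 804 read ends in chromatin-associated RNA, 14 in the knock-out, 57 in the knock-in and 23 in wild-type SSU rRNA. The scores were 0.795 (0.781 to 0.809) in chromatin-associated RNA, 0.934 (0.889 to 0.964) in the knock-out, 0.874 (0.837 to 0.905) in the knock-in and 0.886 (0.829 to 0.928) in wild-type SSU rRNA. It had the lowest score of the 5 sites in each of these 4 libraries. Among the 18 known sites it ranked 17th in chromatin-associated RNA, 15th in the knock-out, 14th in the knock-in and 17th in wild-type SSU rRNA. The residual signal of SSU-Am436 was 20.5% in chromatin-associated RNA, 6.61% in the knock-out, 12.6% in the knock-in and 11.4% in wild-type SSU rRNA.

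SSU-Gm562 (position 466308), absent from the deposited annotation, showed the same kind of dip as the annotated sites. It had 392 read ends in chromatin-associated RNA, 5 in the knock-out, 24 in the knock-in and 11 in wild-type SSU rRNA. The scores were 0.814 (0.794 to 0.832) in chromatin-associated RNA, 0.956 (0.896 to 0.986) in the knock-out, 0.897 (0.847 to 0.934) in the knock-in and 0.922 (0.859 to 0.961) in wild-type SSU rRNA. Of the 1753 18S positions outside the annotation and the list of known sites, 9 scored at least as high in chromatin-associated RNA, 2 in the knock-out, 2 in the knock-in and 0 in wild-type SSU rRNA. In wild-type SSU rRNA it stood above 5 of the other 17 known sites. The neighbouring known sites are SSU-Um578 (snR77), 16 nucleotides away, and SSU-Am541 (snR41), 21 nucleotides away, both outside the window of its score.

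At SSU-Cm1007 (position 465863), the snR79 site, there were 474 read ends in chromatin-associated RNA, 2 in the knock-out, 23 in the knock-in and 3 in wild-type SSU rRNA. The scores were 0.927 (0.920 to 0.934) in chromatin-associated RNA, 0.985 (0.946 to 0.998) in the knock-out, 0.938 (0.906 to 0.961) in the knock-in and 0.985 (0.955 to 0.997) in wild-type SSU rRNA. Its scores spanned 0.0579 over the 4 libraries, against 0.119 to 0.142 at the other 4 sites, but scores near 1 have little room to differ. In residual signal it was 4.88 times as high in chromatin-associated RNA as in the knock-out (1.34 to 40.4, with 2 knock-out read ends). That ratio was 29.3 at SSU-Gm1428 (5.24 to 1158, with 1 knock-out read end), 3.10 at SSU-Am436 and 2.89 at SSU-Cm414. At SSU-Gm562 the ratio lay between those of SSU-Am436 and SSU-Cm1007. In chromatin-associated RNA SSU-Cm1007 ranked 1st among the 1788 18S positions that have 6 neighbours on each side. That rank leans on the neighbours chosen. The neighbour 6 nucleotides after the site had 3.84 times the median of the window. The chromatin score was 0.863 with 2 neighbours on each side and 0.893 with left neighbours alone.

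At SSU-Gm1428 (position 465442), the snR56 site, there were 831 read ends in chromatin-associated RNA, 1 in the knock-out, 57 in the knock-in and 3 in wild-type SSU rRNA. The weighted neighbour means were 5744 in chromatin-associated RNA, 202.4 in the knock-out, 759.3 in the knock-in and 225.8 in wild-type SSU rRNA. The scores were 0.855 (0.845 to 0.865) in chromatin-associated RNA, 0.995 (0.972 to 1.00) in the knock-out, 0.925 (0.903 to 0.943) in the knock-in and 0.987 (0.961 to 0.997) in wild-type SSU rRNA. The knock-out and wild-type values lay highest, the knock-in below both and chromatin-associated RNA below all. Its rank among the 18 known sites was 9th in chromatin-associated RNA, 2nd in the knock-out, 10th in the knock-in and 1st in wild-type SSU rRNA.

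**Figure D1:**
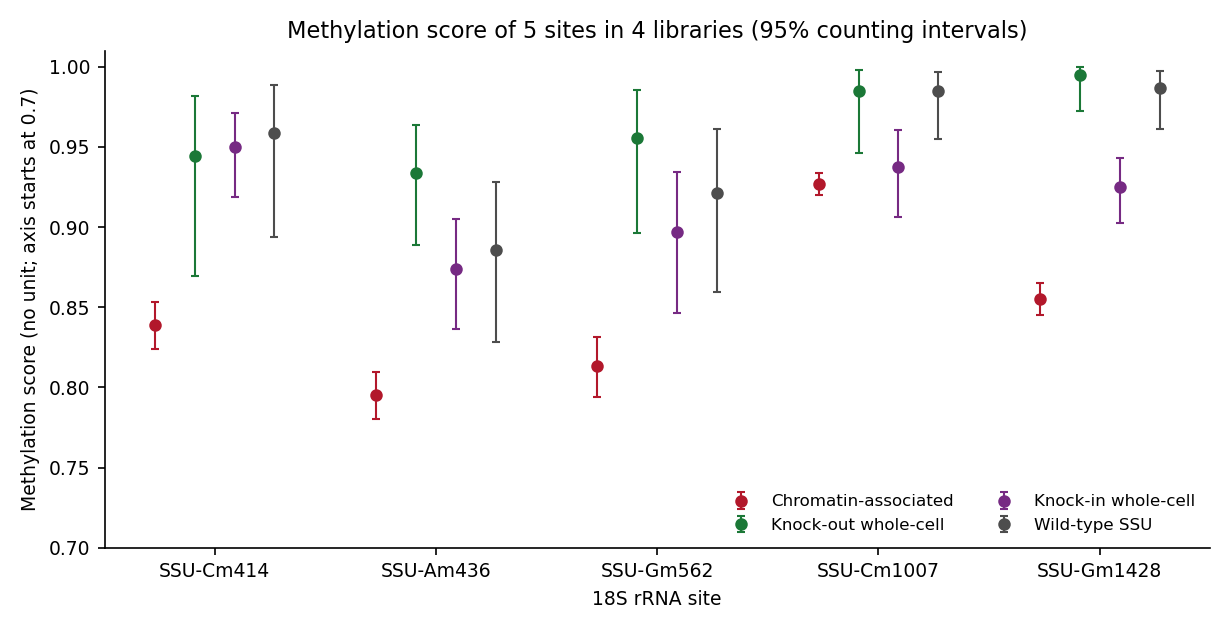
Methylation score of the 5 sites (horizontal axis) in 4 libraries, with 1 sample each; points are scores without unit, bars are 95% counting intervals, and the vertical axis starts at 0.7. Chromatin-associated RNA has the lowest score at each site, from 0.795 at SSU-Am436 to 0.927 at SSU-Cm1007.

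Between sites next to each other in rank, the counting intervals resolved the order at 2 of 4 steps in chromatin-associated RNA, the deepest library, and at 0 of 4 in the others. In chromatin-associated RNA SSU-Cm1007 stood above SSU-Gm1428 by 0.0718 (0.0599 to 0.0839). SSU-Gm1428 and SSU-Cm414 did not separate, with a difference of 0.0161 (-0.00136 to 0.0340). SSU-Cm414 exceeded SSU-Gm562 by 0.0256 (0.00200 to 0.0497), and SSU-Gm562 and SSU-Am436 did not separate (0.0183, from -0.00581 to 0.0416). The chromatin order depended on the window. With 2 neighbours on each side the scores were 0.863 at SSU-Cm1007, 0.856 at SSU-Gm1428, 0.828 at SSU-Am436, 0.799 at SSU-Cm414 and 0.746 at SSU-Gm562. In the wild-type SSU library the order was SSU-Gm1428, SSU-Cm1007, SSU-Cm414, SSU-Gm562 and SSU-Am436, and the counting interval of each step between neighbours in that order held 0. The same was true of each step in the knock-out and in the knock-in. Sites farther apart in rank could still separate. In wild-type SSU rRNA the intervals of SSU-Gm1428 and SSU-Cm1007 lay wholly above that of SSU-Am436, as did that of SSU-Gm1428 in the knock-out.

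At each of the 5 sites the site itself had fewer read ends than any of its 12 neighbours in each of the 4 libraries, but the dip was not always confined to 1 bond. At SSU-Cm414 the next positions were low as well. The position after the site had 953 read ends in chromatin-associated RNA, 34 in the knock-out, 100 in the knock-in and 43 in wild-type SSU rRNA, which is 31.2% to 44.5% of the neighbour mean. The position after that had 11.1% of the neighbour mean in the knock-out and 14.1% in the knock-in, against 41.4% in wild-type SSU rRNA, while in chromatin-associated RNA it had 103%. At the other sites the direct neighbours were higher in the gel-purified library. In wild-type SSU rRNA the positions directly before and after SSU-Cm1007 had 148 and 222 read ends, against 3 at the site. Those beside SSU-Gm1428 had 360 and 167 read ends, against 3, and those beside SSU-Gm562 had 167 and 137, against 11. In chromatin-associated RNA the positions beside SSU-Gm562 had 2664 and 1297 read ends, against 392 at the site. The knock-in library had single neighbours far above the rest. Position 1426, near SSU-Gm1428, had 4638 read ends there, 15.1 times the median of the 12 neighbours, and position 435 had 1879, 8.70 times the median around SSU-Am436. In run 1 alone no neighbour of SSU-Gm1428 exceeded 96 read ends, and position 435 had 106. In wild-type SSU rRNA no neighbour of the 5 sites exceeded 2.62 times the median of its window.

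**Figure D2:**
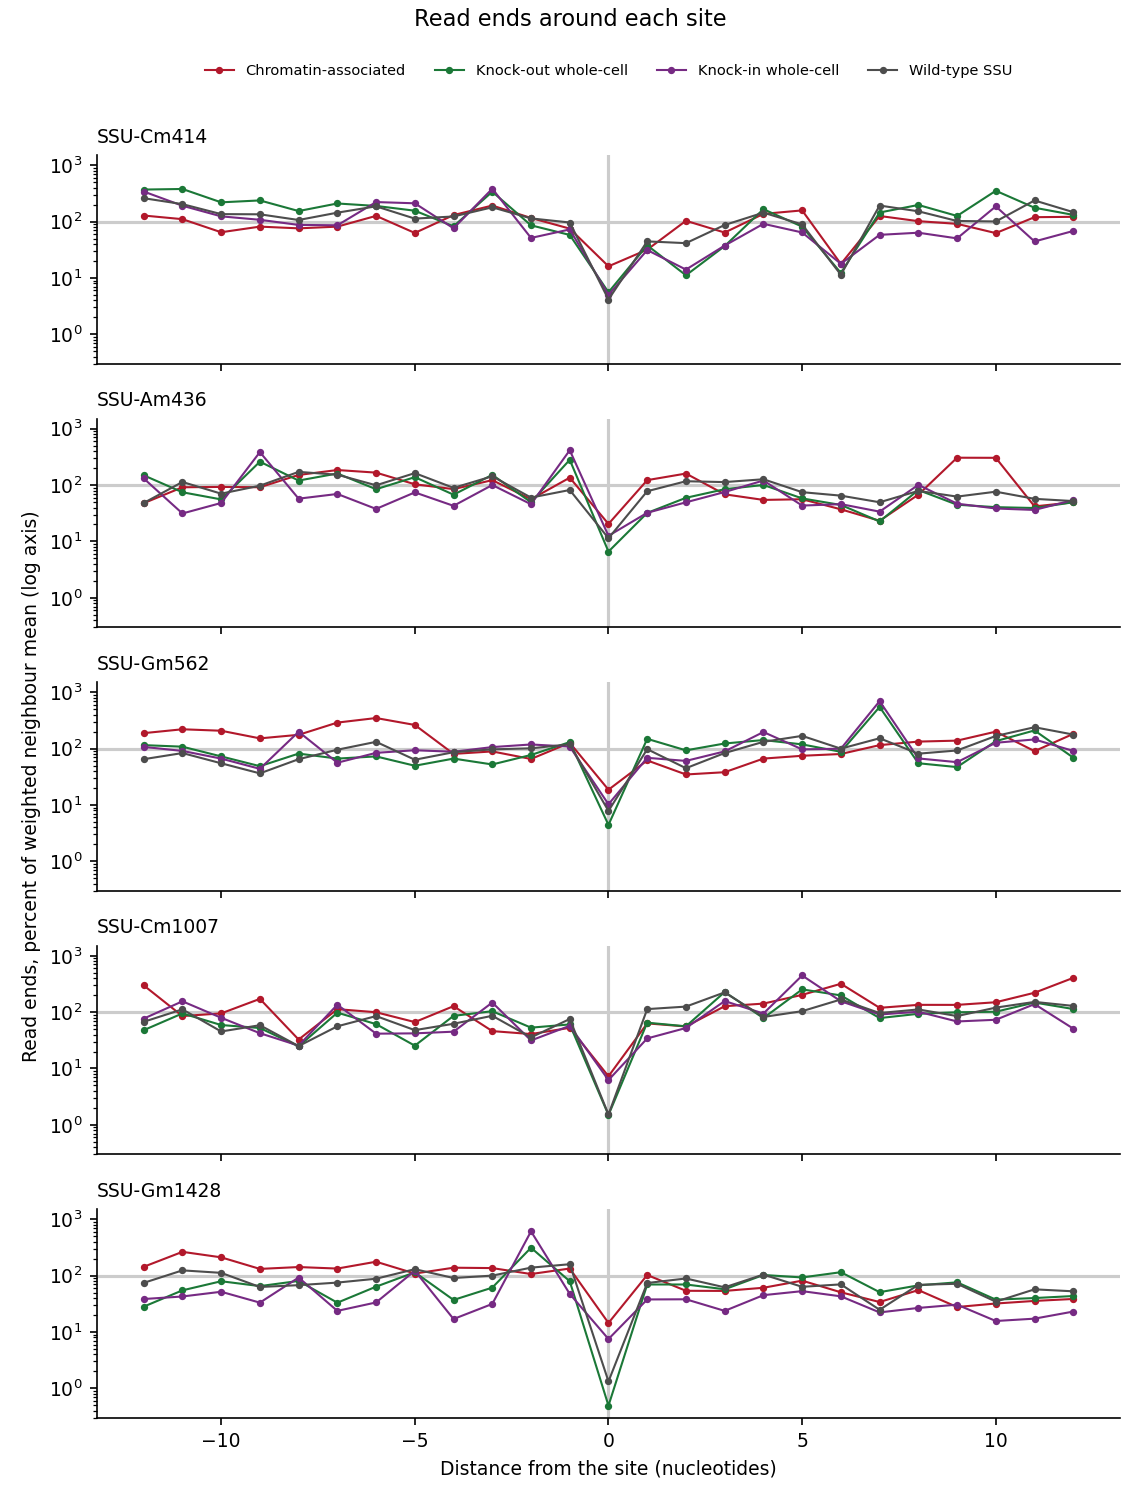
Read ends from 12 nucleotides before to 12 after each of the 5 sites (horizontal axis, distance in nucleotides), as percent of the weighted neighbour mean of the same library on a log axis; lines are the 4 libraries with 1 sample each. Each site is the lowest point of its window, at 16.1% in chromatin-associated RNA and 4.14% in wild-type SSU rRNA at SSU-Cm414, where the low signal runs on over the next positions and SSU-Am420 gives a dip of its own 6 nucleotides downstream.

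Chromatin-associated RNA, which holds nascent transcripts, was compared with SSU rRNA of the same strain, which was gel-purified, so that RNA fraction and purification cannot be told apart. All 5 sites had lower scores in value, with a median difference of -0.108, against -0.0850 over all 18 known sites and 0 over the 1788 positions scored. Negative scores were set to 0, and unlisted positions had a median score of 0.0351 in wild-type SSU rRNA. Many of the 1788 positions therefore had little room to be lower than in that library, which also bears on the shares of positions counted as lower. To be counted as lower, a site needed an interval wholly below 0 and a difference larger than 0.151. That limit is 2 SD of run 1 minus run 2 of the knock-in, taken over the 18 known sites. By that criterion 0 of the 5 sites were lower, against 11.1% of the 18 known sites (2 of 18) and 10.6% of the 1788 positions. By the counting interval alone 5 of 5 were lower, against 77.8% of the 18 known sites (14 of 18) and 11.7% of the 1788 positions, so that most known sites were lower by that rule. The limit rested on 1 known site. Without SSU-Um578, at which the runs differed by 0.211, the limit was 0.107 and SSU-Cm414, SSU-Gm562 and SSU-Gm1428 counted as lower, against 38.9% of the 18 known sites. This rule lies between the full criterion and the interval alone, so its share of the 1788 positions lies between 10.6% and 11.7%.

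The difference at the snR56 site was the most negative of the 5, -0.131 (-0.146 to -0.104) at SSU-Gm1428. The residual signal there was 14.5% in chromatin-associated RNA and 1.33% in wild-type SSU rRNA, a ratio of 10.9 whose interval of 3.71 to 52.9 reflects the 3 wild-type read ends. At SSU-Cm414 the difference was -0.119 (-0.153 to -0.0529), with a residual signal of 16.1% in chromatin-associated RNA and 4.14% in wild-type SSU rRNA (ratio 3.88, from 1.51 to 14.3). At SSU-Gm562 it was -0.108 (-0.152 to -0.0431), with 18.6% in chromatin-associated RNA and 7.84% in wild-type SSU rRNA. SSU-Am436 differed by -0.0906 (-0.135 to -0.0314) and SSU-Cm1007 by -0.0576 (-0.0715 to -0.0274). On the scale of the residual signal SSU-Am436 had the smallest ratio, 1.79 (1.19 to 2.85), and SSU-Cm1007 had 4.77 (1.62 to 23.2). The rank of the sites therefore depended on whether differences or ratios were taken. Against the knock-in runs 0 of the 5 sites were lower under the full criterion (11.1% of the 18 known sites and 29.8% of the 1788 positions) and 4 of 5 by the interval alone (61.1% of the known sites and 33.4% of the positions). SSU-Cm1007 did not separate there, with a difference of -0.0105 (-0.0344 to 0.0214), while the other 4 differed by -0.111 to -0.0696 with intervals below 0. That order depended on how the knock-in neighbours, with their single high positions, were summarised. With the median of the 12 neighbours, a setting added after seeing the data, the difference from the knock-in turned to 0.0472 (0.00114 to 0.103) at SSU-Gm1428, 0.0464 (-0.0194 to 0.126) at SSU-Am436 and 0.0261 (-0.0164 to 0.0836) at SSU-Cm1007. It stayed negative at SSU-Gm562, at -0.133, and at SSU-Cm414, at -0.0736. Intervals with the median leave out the counting error of the neighbours and are too narrow. Against the knock-out 0 of the 5 were lower under the full criterion (16.7% of the 18 known sites and 21.9% of the 1788 positions) and 5 by the interval alone (83.3% of the known sites and 22.9% of the positions). The differences were -0.142 at SSU-Gm562, -0.140 at SSU-Gm1428, -0.139 at SSU-Am436, -0.105 at SSU-Cm414 and -0.0579 at SSU-Cm1007.

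**Figure D3:**
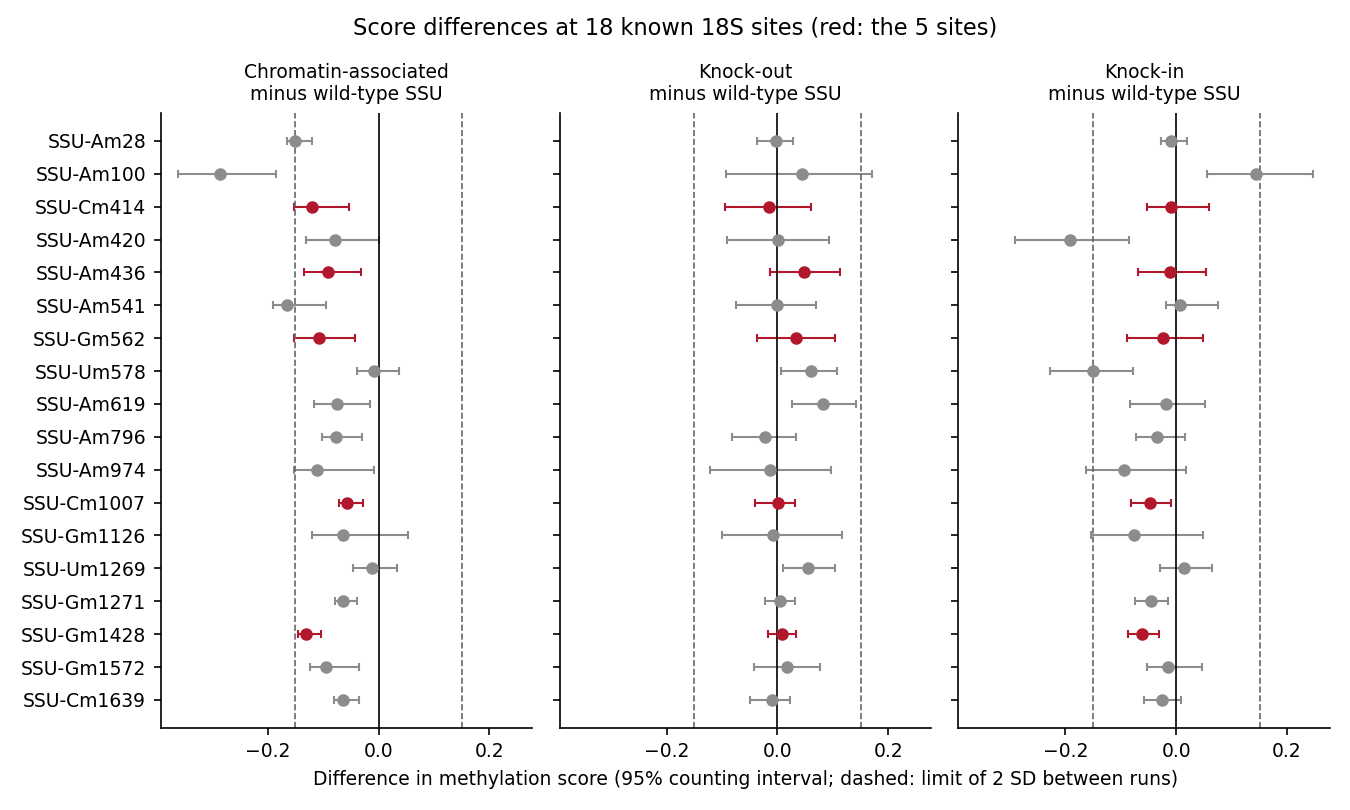
Difference in methylation score from the wild-type SSU library at the 18 known 18S sites for chromatin-associated RNA, the knock-out and the knock-in, with 1 sample per group; points are differences, bars 95% counting intervals, dashed lines the limit of 0.151, and the 5 sites are red. In chromatin-associated RNA the 5 sites lie between -0.131 and -0.0576, inside the limit, with intervals below 0.

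In the knock-out, whose altered site is in 25S rRNA, 0 of the 5 sites were lower than in wild-type SSU rRNA under the full criterion, against 0% of the 18 known sites and 3.97% of the 1788 positions. By the interval alone 0 of the 5 were lower too, against 0% of the known sites and 4.03% of the positions. The counting interval of the difference held 0 at each of the 5 sites. The differences were 0.0479 (-0.0135 to 0.113) at SSU-Am436, 0.0341 (-0.0372 to 0.103) at SSU-Gm562, 0.00835 (-0.0166 to 0.0344) at SSU-Gm1428, 0.000348 (-0.0406 to 0.0326) at SSU-Cm1007 and -0.0143 (-0.0948 to 0.0607) at SSU-Cm414. The intervals reach down to a loss of 0.0948 at SSU-Cm414 and of 0.0166 at SSU-Gm1428. The knock-out was whole-cell RNA and the wild-type library gel-purified SSU rRNA, so that strain and RNA type cannot be told apart.

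In the knock-in runs 0 of the 5 sites were lower than in wild-type SSU rRNA under the full criterion, against 5.56% of the 18 known sites and 7.21% of the 1788 positions. By the interval alone SSU-Gm1428 and SSU-Cm1007 were lower, 2 of 5, against 27.8% of the 18 known sites and 7.83% of the positions. SSU-Gm1428 differed by -0.0618 (-0.0864 to -0.0303) and SSU-Cm1007 by -0.0470 (-0.0806 to -0.00977). The other 3 differed by -0.0245 at SSU-Gm562, -0.0119 at SSU-Am436 and -0.00860 at SSU-Cm414, with intervals that held 0. With the median of the neighbours the difference was -0.143 (-0.233 to -0.0547) at SSU-Am436 and -0.171 (-0.227 to -0.117) at SSU-Gm1428, and with the right neighbours alone -0.0929 (-0.169 to -0.0143) at SSU-Am436 and -0.175 (-0.235 to -0.117) at SSU-Gm1428. None of these passed the limits of those settings, 0.198 and 0.181. The snR79 and snR56 sites were also lower in the knock-in than in the knock-out, the other whole-cell library. The knock-out stood above the knock-in by 0.0701 (0.0411 to 0.0929) at SSU-Gm1428, by 0.0474 (0.00209 to 0.0813) at SSU-Cm1007 and by 0.0598 (0.00532 to 0.108) at SSU-Am436, 3 of 5 sites by the interval alone, against 44.4% of the 18 known sites and 9.68% of the 1788 positions. By the full criterion 0 of the 5 sites were higher, against 11.1% of the 18 known sites and 9.06% of the positions.

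Between the knock-in runs none of the 5 sites differed beyond its counting interval. Run 1 scored 0.953 and run 2 scored 0.949 at SSU-Cm414. Run 1 gave 0.919 and run 2 gave 0.925 at SSU-Gm1428, with 4 read ends in run 1 and 53 in run 2. The largest difference among the 5 was at SSU-Gm562, 0.931 in run 1 and 0.863 in run 2 (0.0685, from -0.0208 to 0.163). Each of the 5 intervals held 0, whereas SSU-Um578 scored 0.933 in run 1 and 0.722 in run 2.

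Counting 3' ends and 5' ends apart changed which sites stood out in chromatin-associated RNA. At SSU-Cm414 431 of the 483 chromatin read ends were 3' ends (89.2%, Wilson interval 86.2 to 91.7%), against 73.4% over its 12 neighbours. Its score difference from wild-type SSU rRNA was -0.160 (-0.195 to -0.0711) with 3' ends and -0.0121 (-0.0647 to 0.133) with 5' ends. SSU-Am436 showed the opposite split, with 594 of 804 chromatin read ends being 5' ends. There the difference was -0.182 (-0.233 to -0.110) with 5' ends, which exceeded the limit of 0.163 for those ends, and 0.0348 (-0.0464 to 0.165), in the other direction, with 3' ends. At SSU-Gm1428 612 of 831 chromatin read ends were 5' ends, and the difference was -0.163 (-0.188 to -0.113) with 5' ends, marginally under that limit, and -0.0883 (-0.101 to -0.0509) with 3' ends. SSU-Cm1007 differed by -0.0723 (-0.0826 to 0.0160) with 3' ends and -0.0538 (-0.0720 to -0.0153) with 5' ends, and SSU-Gm562 by -0.172 (-0.260 to 0.0178) and -0.0788 (-0.126 to -0.00453). In the knock-in 13 of 16 read ends at SSU-Cm414 were 3' ends (81.2%, from 57.0 to 93.4%), an interval that holds the 69.6% of its neighbours, and SSU-Am436 (42 of 57) and SSU-Gm1428 (46 of 57) had mostly 5' ends. The share of 3' ends at SSU-Am436 was 26.3% (16.6 to 39.0%), an interval that holds the 38.9% of its neighbours. At SSU-Gm1428 it was 19.3% (11.1 to 31.3%), below the 47.2% of its neighbours. That came from run 2, with 9 of 53 read ends (17.0%) against 48.6% of the neighbours. In run 1 2 of 4 read ends at SSU-Gm1428 were 3' ends, against 30.5% of the neighbours. The share differed between runs, with 8 of 9 read ends at SSU-Am436 being 3' ends in run 1 and 7 of 48 in run 2. Its 12 neighbours moved the same way, with 74.1% 3' ends in run 1 and 28.9% in run 2.

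**Figure D4:**
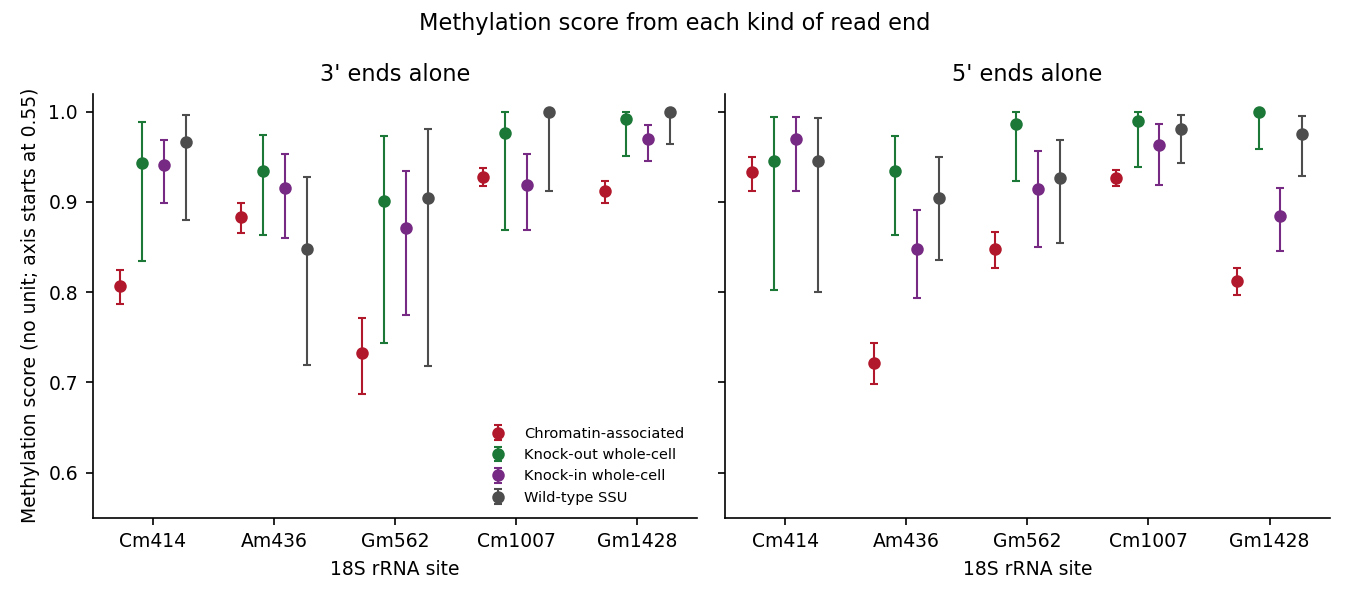
Methylation score of the 5 sites (horizontal axis) from 3' ends alone (left) and 5' ends alone (right) in 4 libraries with 1 sample each; points are scores without unit, bars are 95% counting intervals, and the vertical axis starts at 0.55. In chromatin-associated RNA SSU-Cm414 scores 0.807 with 3' ends and 0.933 with 5' ends, and SSU-Am436 scores 0.883 with 3' ends and 0.722 with 5' ends.

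The medians of the 5 sites lay close to those of the other 13 known 18S sites. Their median score was 0.839 in chromatin-associated RNA, 0.956 in the knock-out, 0.925 in the knock-in and 0.959 in wild-type SSU rRNA. The 13 others had medians of 0.862 in chromatin-associated RNA, 0.976 in the knock-out, 0.933 in the knock-in and 0.961 in wild-type SSU rRNA, and the 1753 unlisted positions had 0.140, 0.119, 0.172 and 0.0351 in those 4 libraries. Likeness was measured as the root mean square difference of scores over the 4 libraries. By this measure the known site most like SSU-Cm1007 was SSU-Gm1271 (snR40), at 0.00507. SSU-Gm1428 was most like SSU-Gm1572 (snR57), at 0.0198, SSU-Gm562 like SSU-Am619 (snR47), at 0.0263, SSU-Cm414 like SSU-Am28 (snR74), at 0.0271, and SSU-Am436 like SSU-Gm1126 (snR41), at 0.0412. Of the known sites near the 5, SSU-Am420 scored 0.710 and SSU-Um578 0.778 in the knock-in, against 0.902 and 0.929 in wild-type SSU rRNA, and SSU-Am541 scored 0.992 in the knock-in, against 0.985 in wild-type SSU rRNA.

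The scores in the authors' deposited files are other statistics and are not on the same scale. Their Score A was 0.397 in chromatin-associated RNA, 0.870 in the knock-out, 0.739 in the knock-in and 0.788 in wild-type SSU rRNA at SSU-Gm562, the site their annotation lacks. No unlisted position reached the authors' deposited Score A of SSU-Gm562 in the knock-out or in wild-type SSU rRNA, while 11 did in chromatin-associated RNA and 3 in the knock-in. At SSU-Cm1007 the authors' deposited Score A was 0.724 in chromatin-associated RNA, 0.925 in the knock-out, 0.296 in the knock-in and 0.946 in wild-type SSU rRNA. In run 2 alone it was 0, where the score computed here was 0.935 with 20 read ends and a neighbour mean of 308.8. At SSU-Gm1428 the authors' deposited Score A was 0.685 in chromatin-associated RNA, 0.960 in the knock-out, 0.774 in the knock-in and 0.959 in wild-type SSU rRNA.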

How the data were processed

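RiboMeth-seq read ends on 18S rRNA were taken from 8 files of 6 samples, 1 sample in each of 6 groups. Each file held 6 tracks in 1 column. Per the file headers, the tracks are counts of 3' ends, of 5' ends and of both, followed by Score B, Score A and a pseudouridine score computed by the authors, and the deposited counts carry no normalization. The knock-in LSU file names its score tracks differently and records its own handling, with reads mapped to the 35S precursor and no errors in the 3 nucleotides nearest the RNA end. The submitters' processing notes list cutadapt 1.2 and Bowtie2 2.1.0. Build, options and handling of reads with several alignments: not given in the sources used here. Checked at all 1800 positions of 18S rRNA, the track of both ends was 3' plus 5' ends in each file, and the combined knock-in track was the sum of its runs. Position in 18S rRNA was taken from the start coordinate.

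With Python 3.11.15, NumPy 2.4.6 and SciPy 1.17.1, the score was 1 minus the count divided by the mean of the left and right neighbour means, with weights of 1 down to 0.5 in steps of 0.1 over 6 positions, and negative scores were set to 0. Clopper-Pearson bounds used the site count and an effective neighbour count, and intervals of differences joined the bounds of both scores by the square-and-add method. With the median of the neighbours, Poisson bounds of the site count were used and the median was taken as free of error. Depth ranged from 8429 to 9790438 read ends on 18S rRNA. Alternatives were other ends, windows, weights, limits, input files and libraries to compare with. The members, the list of 18 known sites (from general knowledge, with bases not checked against a sequence), the rule for named sites and the comparisons were chosen with earlier results of these data known. That rule names the 5 sites, known sites within 25 nucleotides of them, the known site most like each, and both targeted LSU positions. The pseudouridine track was not used here, and no sequence was used. What separated the knock-in runs is not stated.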

Additional observations from a re-analysis of the deposited data

Results flagged for a closer look

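Read ends on 18S rRNA also appeared in both libraries of gel-purified LSU rRNA, which enter no comparison. The knock-in LSU library held 8429 read ends on 18S rRNA (0.699% of its 18S and 25S read ends, Wilson interval 0.684 to 0.714%) and the wild-type LSU library held 30674 (2.43%, from 2.41 to 2.46%). The wild-type SSU library was less pure, with 80.1% (80.0 to 80.2%) of its 18S and 25S read ends on 18S rRNA and 70381 read ends on 25S rRNA. In the wild-type LSU library SSU-Gm562, SSU-Cm1007 and SSU-Gm1428 had 0 read ends, with neighbour means of 22.4, 20.6 and 16.8, and the 3 counts that a count of 0 allows would give scores of 0.866, 0.854 and 0.822. SSU-Am436 scored 0.854 there (0.569 to 0.970) and SSU-Cm414 0.686 (0.0574 to 0.936), each with 3 read ends. In the knock-in LSU library 4 of the 5 sites had 0 read ends and SSU-Cm1007 had 1, with neighbour means of 2.92 to 7.47, so that at this depth even a score of 0 is inside the interval at SSU-Gm562 and SSU-Cm1007.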

How the results depend on the processing

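The count of the 5 sites that were lower in chromatin-associated RNA than in wild-type SSU rRNA, 0 as reported, was 1 with 5' ends alone (SSU-Am436) and 5 by the counting interval alone. By that interval 77.8% of the 18 known sites and 11.7% of the 1788 positions were lower. With settings chosen after seeing the data the count was 2 with the right neighbours alone (SSU-Gm562 and SSU-Gm1428). It was 3 with the limit without SSU-Um578, against 38.9% of the 18 known sites. The count in the knock-in, 0 as reported, was 2 by the counting interval alone, against 27.8% of the 18 known sites and 7.83% of the 1788 positions. The count in the knock-out was 0 under each alternative run. The cause was not tested for the counts that moved with the ends or the neighbours. For those settings no share of the known sites or of all positions is given. Whether these counts, or the single sites past a limit below, exceed that share cannot be told. Over the 3 comparisons with wild-type SSU rRNA, 26 of 29 recomputed counts equalled the reported one, as did 10 of 12 with settings added after seeing the data. Settings that change only the limit cannot move a difference and are left out here. Among those that did move it, the difference of chromatin-associated RNA from wild-type SSU rRNA was below 0 under 10 of 10 at SSU-Cm414, 9 of 9 at SSU-Gm562, SSU-Cm1007 and SSU-Gm1428, and 8 of 9 at SSU-Am436, the exception being 3' ends alone. It ranged from -0.160 to -0.0121 at SSU-Cm414, from -0.182 to 0.0348 at SSU-Am436, from -0.250 to -0.0519 at SSU-Gm562, from -0.119 to -0.0105 at SSU-Cm1007 and from -0.192 to -0.0696 at SSU-Gm1428. In the knock-in the difference from wild-type SSU rRNA ranged from -0.0617 to 0.0248 at SSU-Cm414, from -0.143 to 0.0672 at SSU-Am436, from -0.0588 to 0.00974 at SSU-Gm562, from -0.125 to -0.0178 at SSU-Cm1007 and from -0.175 to -0.0304 at SSU-Gm1428. The knock-out exceeded the knock-in at SSU-Gm1428 by 0.186 with the right neighbours alone, past the limit of that setting. With other ends or neighbours, chromatin-associated RNA also fell below the knock-out past the limit of the setting at SSU-Am436 (-0.212, 5' ends), SSU-Gm562 (-0.215 with 2 neighbours on each side and -0.292 with right neighbours) and SSU-Gm1428 (-0.187 with 5' ends and -0.203 with right neighbours), and below the knock-in at SSU-Gm562 (-0.224, right neighbours). The choice of neighbours moved single scores: in the knock-in SSU-Am436 scored 0.910 with left and 0.790 with right neighbours alone, and SSU-Gm562 in chromatin-associated RNA 0.870 and 0.671. Depth limits the knock-out and wild-type values, which rest on 1 to 23 read ends at each site. No paired analysis was possible because each group had 1 sample.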

Other observations

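Near 4 of the 5 sites the neighbour with the most read ends was the same nucleotide in the knock-out and in the combined knock-in runs, both whole-cell RNA. These positions were named after their values were seen. Position 435 had 281% of the weighted neighbour mean of SSU-Am436 in the knock-out and 415% in the knock-in, against 81.8% in wild-type SSU rRNA. Position 1426 had 313% of the neighbour mean of SSU-Gm1428 in the knock-out and 611% in the knock-in, against 139% in wild-type SSU rRNA. In the knock-in the peaks at 435 and 1426 came mostly from run 2. Position 435 had 1773 read ends in run 2 but 106 in run 1, where the highest neighbour of SSU-Am436 had 141. The highest neighbour of SSU-Gm1428 had 4595 read ends in run 2 and 96 in run 1. Position 1012, near SSU-Cm1007, had 253% in the knock-out and 447% in the knock-in, against 104% in wild-type SSU rRNA, and position 411, near SSU-Cm414, had 338% in the knock-out and 382% in the knock-in, against 179% in wild-type SSU rRNA. In run 1 of the knock-in the highest neighbours of SSU-Cm1007 and SSU-Cm414 had 207 and 216 read ends, against neighbour means of 60.3 and 63.3. In chromatin-associated RNA the same positions had 135% (435), 107% (1426), 202% (1012) and 192% (411). The nucleotide 7 positions after SSU-Gm562, just outside the window of its score, had 549% in the knock-out and 695% in the knock-in, against 153% in wild-type SSU rRNA.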
